A study of Mus musculus with 12 samples.

Results

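The Smad transducers and their inhibitors are 10 genes that carry, or hold back, the signal of receptors for TGF-beta and its relatives: Smad2, Smad3, Smad4, Smad7, Smurf1, Smurf2, Ski, Skil, Tgif1 and Bambi. They were taken by symbol, from the probe sets that the platform annotation gives exactly 1 gene symbol. Each gene had 1 such probe set, so 10 of the 14996 probe sets with 1 symbol, and of 23332 in all, are described. On GRCm38.p6, Smad2, Smad4, Smad7 and Bambi lie on chromosome 18, Skil on 3, Ski on 4, Smurf1 on 5, Smad3 on 9, Smurf2 on 11 and Tgif1 on 17. Total RNA of dendritic cells (DC) from C57BL/6 mice was hybridised to 12 arrays (Affymetrix Mouse Exon 1.0 ST), 3 in each of 4 groups. From spleen, CD11c+ cells came from Cre- control mice and from Cre+ mice with a TGFBR2 deletion, and from mesenteric lymph nodes (MLN), CD11c+CD103+ cells came from mice of the same pair of genotypes. Splenic cells were isolated with magnets and MLN cells by flow sorting, so the tissues also differ in how the cells were obtained. Each MLN array held cells pooled from 4 mice, and the number of mice behind a spleen array is not stated. Neither the promoter that drives Cre nor the exons removed nor the age of the mice is given in the sources used here. The cells were untreated. The p-values measure the spread between arrays, which may be partly technical.

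TGF-beta binds a pair of kinase receptors, Tgfbr2 and Tgfbr1, and the activated receptor phosphorylates the receptor-regulated Smads, Smad2 and Smad3. These join Smad4, the partner shared by the TGF-beta and bone morphogenetic protein (BMP) branches, and the complex enters the nucleus to switch genes on or off. Smad7 blocks the receptor and brings the ubiquitin ligases Smurf1 and Smurf2 to it, Ski and Skil (SnoN) are nuclear corepressors of the Smad complex, Tgif1 is a homeodomain corepressor, and Bambi is a receptor-like protein without a kinase. Smad7, Skil and Bambi are themselves known to be induced by TGF-beta in many cell types and so act as negative feedback. In DC, TGF-beta signalling is known for restraining maturation and for guiding tissue-resident subsets such as Langerhans cells.

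The deposited values were log2 expression values from robust multi-array averaging (RMA), in which a step of 1 is a doubling. The median over probe sets was 7.03 to 7.08 on spleen arrays and 6.74 to 6.89 on MLN arrays, and the SD of an array's values was 2.37 to 2.42 in spleen but 1.80 to 1.91 in MLN, so a level set across tissues depends on the scaling. Tgfbr2, the gene targeted, stood in spleen at 10.94 ± 0.02 in controls against 10.70 ± 0.03 in Cre+ mice, and in MLN at 9.58 ± 0.08 against 9.46 ± 0.08 (SD, n = 3), and neither difference passed the threshold. A gene-level value also covers exons outside a deletion and so does not measure it. Y-linked Eif2s3y stood at 9.91 ± 0.14 on the splenic control arrays against 3.17 ± 0.14 on the splenic Cre+ arrays (SD, n = 3), so that in spleen sex cannot be told apart from genotype. The 12 measured markers of conventional DC had a mean within-array percentile of 88.1 to 91 on all arrays. Itgae, which encodes CD103, had a mean of 6.94 in spleen Cre- and 8.0 in MLN Cre-, and of 7.33 in spleen Cre+ and 7.76 in MLN Cre+. The tissue difference in Cre+ mice did not pass as deposited (0.42, limma adjusted p = 0.0805) but did after quantile normalization (0.89, limma adjusted p = 0.000849). The arrays also carried signal for other cells: 9 T cell genes had a mean percentile of 93.2 to 95.3 in MLN, where Cd3e, a chain of the T cell receptor complex, stood at percentile 99, and 9 B cell genes had 95.1 to 97 on all arrays.

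No Smad transducer or inhibitor passed the threshold of adjusted p under 0.05 between Cre+ and Cre- mice in either tissue. In spleen 0 of 10 were called by limma, 0 had an unadjusted p under 0.05, and 2.17% of all probe sets were called. In MLN 0 of 10 were called, 1 (Smad3) had an unadjusted p under 0.05, and 0.0857% of all probe sets were called. The differences ran from -0.24 for Smad7 to 0.18 for Smurf2 in spleen and from -0.19 for Smad7 to 0.31 for Smad3 in MLN. The 95% intervals of the 10 genes lay within -0.49 to 0.39 in spleen, that is 0.713 to 1.31 times the control level, and within -0.43 to 0.59 in MLN, 0.742 to 1.51 times. Those bounds are the outermost limits of 10 separate intervals, which are not adjusted for the number of tests. They are therefore not a limit of detection, and the interval of a single gene can be narrower. At 3 arrays a group, a change that did not pass the threshold cannot be taken as absent. Since whole cell isolates were measured, fewer cells of a type and less RNA per cell cannot be told apart. The median difference of the 10 genes was -0.06 in spleen, against 0.01 over all probe sets, and 0.09 in MLN, against 0.08 over all.

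**Figure D1:**
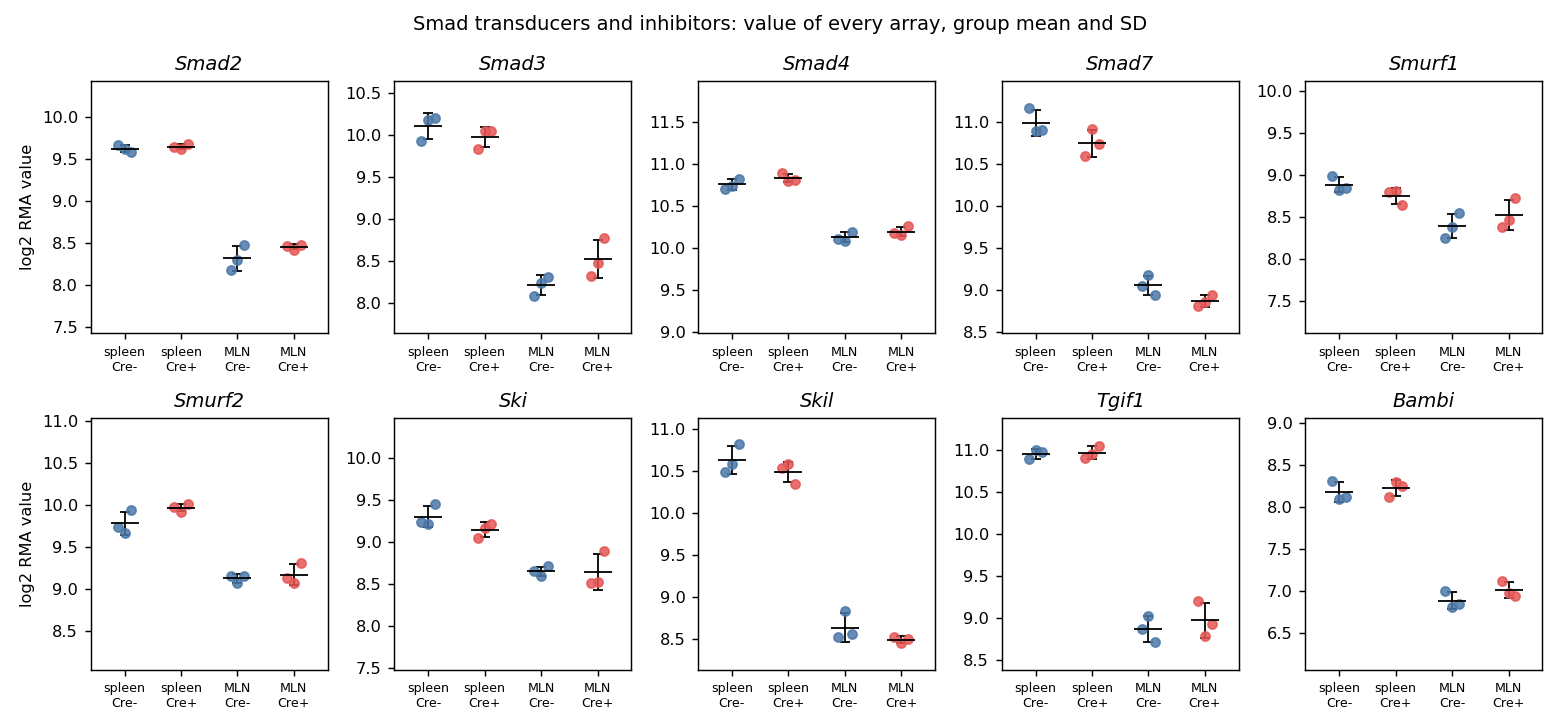
Value of each of the 10 genes on every array (points, log2 RMA value, y axis) in the 4 groups (x axis), with the group mean and SD in black; blue is Cre- and red Cre+, and each panel spans 3 log2 units. Within a tissue the Cre- and Cre+ points lie close together, whereas every gene sits lower in MLN than in spleen on the deposited scale, with overlap of single arrays for Smurf1 alone.

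Among the receptor-regulated Smads, Smad2 was close to equal in the genotypes and Smad3 differed most in MLN. Smad2 measured 9.67, 9.62 and 9.59 in spleen Cre-, 9.65, 9.62 and 9.68 in spleen Cre+, 8.18, 8.30 and 8.48 in MLN Cre- and 8.47, 8.42 and 8.48 in MLN Cre+. The groups overlapped in both tissues, with a difference of 0.02 in spleen (SE 0.0837, adjusted p = 0.936) and of 0.14 in MLN (SE 0.0837, adjusted p = 0.507). Smad3 measured 9.93, 10.18 and 10.20 in spleen Cre- and 9.83, 10.04 and 10.04 in spleen Cre+, where the groups overlapped with a difference of -0.13 (SE 0.13, adjusted p = 0.683). In MLN it measured 8.08, 8.24 and 8.31 in Cre- and 8.32, 8.47 and 8.77 in Cre+. All Cre+ arrays of MLN thus lay above all Cre- arrays, the lowest by only 0.01, and replicate 3 stood highest. The MLN difference of 0.31 (SE 0.13, adjusted p = 0.402) did not pass the threshold. It was 0.16 after quantile normalization and 0.18 without MLN Cre+ replicate 3. Smad3 was the 1 of 10 genes without overlap in MLN, and 13.4% of all probe sets had every MLN Cre+ array above every control.

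Smad4, the common partner, was the member with the smallest spread between arrays. It measured 10.70, 10.74 and 10.82 in spleen Cre-, 10.89, 10.80 and 10.81 in spleen Cre+, 10.10, 10.08 and 10.19 in MLN Cre- and 10.17, 10.15 and 10.26 in MLN Cre+. The groups overlapped in both tissues, and the differences were 0.08 (SE 0.0741, adjusted p = 0.674) in spleen and 0.07 (SE 0.0741, adjusted p = 0.712) in MLN. The residual SD of Smad4 was 0.059, at percentile 1.71 of all probe sets, and that of Smad2 was 0.080, at percentile 7.75, against a median of 0.163. The 95% interval of the Smad4 difference was therefore narrow, -0.08 to 0.24 in spleen and -0.09 to 0.23 in MLN.

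Smad7, the inhibitory Smad, had lower Cre+ means in both tissues, without passing the threshold. It measured 11.16, 10.89 and 10.90 in spleen Cre- and 10.59, 10.91 and 10.73 in spleen Cre+, and 1 Cre+ array, replicate 2, reached the Cre- range. In MLN it measured 9.05, 9.17 and 8.94 in Cre- and 8.81, 8.85 and 8.94 in Cre+, where the groups met at 8.94. The differences were -0.24 (SE 0.111, adjusted p = 0.312) in spleen and -0.19 (SE 0.111, adjusted p = 0.507) in MLN. Averaged over the tissues the Smad7 difference was -0.21 (SE 0.0784, 95% interval -0.39 to -0.04, adjusted p = 0.205), or 86.2% of the control level. Of the 10 genes, Smad7 alone had an unadjusted p under 0.05 in that average, where 0 of 10 were called by limma and 1.26% of all probe sets were called. The average was -0.33 after quantile normalization (adjusted p = 0.117), and its adjusted p stayed between 0.117 and 0.387 over the alternatives.

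The ubiquitin ligases that Smad7 recruits had differences of opposite sign in spleen and of the same sign in MLN, and neither passed the threshold. Smurf1 measured 8.98, 8.82 and 8.84 in spleen Cre- and 8.79, 8.81 and 8.64 in spleen Cre+, so that all Cre+ arrays lay lower, by 0.01 at the closest. Its differences were -0.13 (SE 0.11, adjusted p = 0.619) in spleen and 0.13 (SE 0.11, adjusted p = 0.643) in MLN, where the groups overlapped at 8.25 to 8.54 in Cre- and 8.38 to 8.72 in Cre+. Smurf2 measured 9.74, 9.67 and 9.94 in spleen Cre- and 9.98, 9.92 and 10.01 in spleen Cre+, with a slight overlap through Cre- replicate 3. The Smurf2 difference was 0.18 (SE 0.0934, adjusted p = 0.367) in spleen and 0.04 (SE 0.0934, adjusted p = 0.88) in MLN, where the arrays spanned 9.07 to 9.16 in Cre- and 9.07 to 9.31 in Cre+.

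Of the nuclear corepressors, Skil had nearly the same difference in each tissue. Skil measured 10.49, 10.59 and 10.82 in spleen Cre-, 10.54, 10.58 and 10.35 in spleen Cre+, 8.52, 8.83 and 8.56 in MLN Cre- and 8.53, 8.45 and 8.50 in MLN Cre+. Both pairs of groups overlapped, and the difference was -0.14 in spleen (SE 0.114, adjusted p = 0.601) and in MLN (SE 0.114, adjusted p = 0.608). Ski measured 9.24, 9.22 and 9.45 in spleen Cre- and 9.05, 9.17 and 9.22 in spleen Cre+. All Cre+ arrays of Ski lay lower in spleen, barely so at 9.22, with a difference of -0.16 (SE 0.114, adjusted p = 0.559). In MLN Ski spanned 8.60 to 8.71 in Cre- and 8.51 to 8.89 in Cre+, a difference of -0.01 (SE 0.114, adjusted p = 0.979). Ski and Smurf1 were the 2 of 10 genes without overlap in spleen, both lower in Cre+, and 9.37% of all probe sets were lower there without overlap. Tgif1, which binds DNA on its own as well as through Smads, measured 10.89, 11.00 and 10.98 in spleen Cre- and 10.90, 10.95 and 11.05 in spleen Cre+. Its groups overlapped in both tissues, with differences of 0.01 (SE 0.116, adjusted p = 0.988) in spleen and 0.11 (SE 0.116, adjusted p = 0.716) in MLN, where the arrays spanned 8.72 to 9.02 and 8.79 to 9.20.

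Bambi, the pseudoreceptor, stood near the middle of the arrays' range, at a mean percentile of 64.7 in spleen Cre- and 52.8 in MLN Cre-. It measured 8.31, 8.09 and 8.12 in spleen Cre-, 8.12, 8.30 and 8.25 in spleen Cre+, 7.0, 6.81 and 6.84 in MLN Cre- and 7.12, 6.97 and 6.94 in MLN Cre+. The groups overlapped in both tissues, at a difference of 0.05 in spleen (SE 0.0953, adjusted p = 0.855) and of 0.12 in MLN (SE 0.0953, adjusted p = 0.598).

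**Figure D2:**
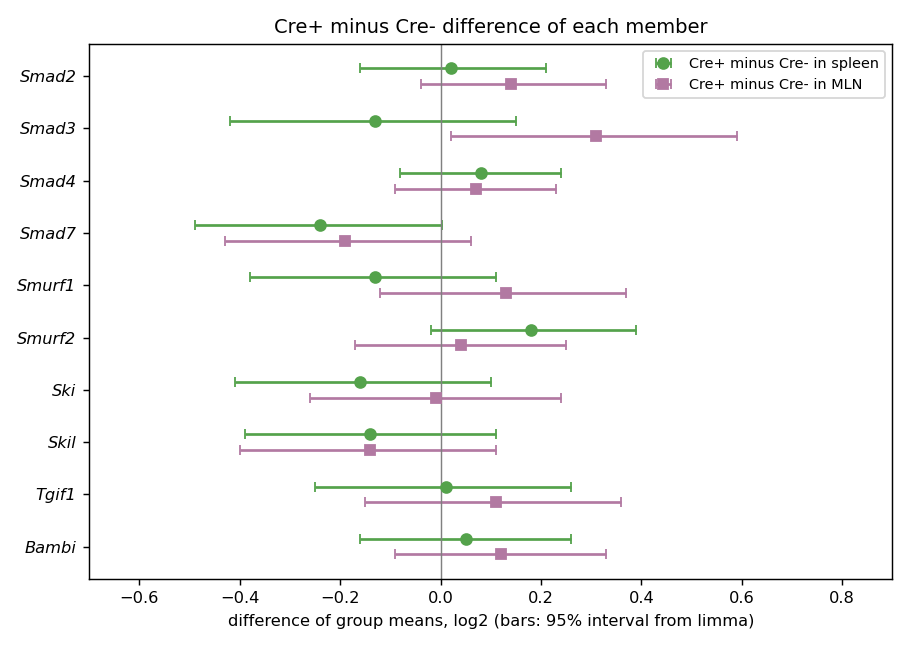
Cre+ minus Cre- difference of group means (x axis, log2) for each gene (y axis) in spleen (circles) and MLN (squares), with 95% intervals from limma. The intervals of all genes but Smad3 in MLN, at 0.02 to 0.59, hold 0, and Smad7 is the lowest point in each tissue, at -0.24 and -0.19.

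Whether the genotype difference itself differed between the tissues was tested as the MLN difference minus the spleen difference. By limma 0 of 10 genes were called, 1 had an unadjusted p under 0.05, and 0.163% of all probe sets were called. Smad3 had the largest value, 0.44 (SE 0.183, 95% interval 0.04 to 0.85, adjusted p = 0.369), with the sign negative in spleen and positive in MLN. It was 0.36 after quantile normalization and ran from 0.32 to 0.54 when single arrays were left out. Smurf1 followed with 0.26 (SE 0.156, adjusted p = 0.533). The other 8 genes had values between -0.14 for Smurf2 and 0.15 for Ski, and that of Skil was -0.00022. Marker genes of other cell types and of proliferation also differed between the genotype groups, which in spleen cannot be told apart from sex. In spleen 7 of 9 neutrophil genes and 5 of 9 proliferation genes rose, and 4 of 10 macrophage genes and 2 of 7 plasmacytoid DC genes fell. The latter were Bst2, a cell surface antigen (-0.65, adjusted p = 0.027), and Ccr9, a chemokine receptor gene (-0.82, adjusted p = 0.0363). Cox6a2 of the same list went the other way (0.84, adjusted p = 0.0786) and did not pass. With the filter on dim probe sets, with 1-symbol probe sets or without spleen Cre- replicate 3, 1 gene of that list was called higher. Of all probe sets, 2.17% were called in spleen. With the 6 splenic arrays alone, 1 neutrophil gene and no gene of the other 3 lists passed. With single arrays left out, 4 to 7 neutrophil and 2 to 7 proliferation genes rose, and 2 to 4 macrophage and 0 to 2 plasmacytoid DC genes fell. In MLN 1 of 10 macrophage genes rose, namely Adgre1 (F4/80, 0.90, adjusted p = 0.0332), beside 0.0857% of all probe sets called. All 10 were positive there, and the number called was 4 after quantile normalization and 0 with the replicate block, with the 6 MLN arrays alone or with all arrays shifted to 1 median. It was also 0 in 8 of the 12 fits that left out a single array. Of the 12 conventional DC genes, Itgam rose in MLN (0.95, adjusted p = 0.0186), also after quantile normalization (0.95, adjusted p = 0.0226). No probe set at all was called in MLN with the replicate block or with the MLN arrays alone. Of 9 B cell genes, Cd22 rose in spleen (0.54, adjusted p = 0.0434), a call lost after quantile normalization (adjusted p = 0.0685). The mean level of the neutrophil list was 8.06 to 8.18 in spleen Cre- and 9.23 to 10.10 in spleen Cre+, and that of the macrophage list was 6.97 to 7.34 in MLN Cre- and 7.63 to 7.78 in MLN Cre+. Their part in the Smad gene values was not tested.

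Between the control groups, CD11c+ cells of spleen and CD11c+CD103+ cells of MLN, the deposited values differed far more than between genotypes. After quantile normalization this did not hold for each gene: Smad2 had -0.29 between these tissue groups, and Smad7 had -0.36 between genotypes in MLN. On the deposited scale all 10 genes were lower in MLN Cre- than in spleen Cre-, and each passed the threshold and had no overlap of arrays. Lower values were common on that scale: 49% of all probe sets were called as lower in this comparison, 49.7% were lower without overlap, and the median was -0.36. Quantile normalization of all 12 arrays moved the median of all probe sets to 0.03 and split the 10 genes into 2 sets. Tgif1 (-2.09 as deposited, -0.96 after), Skil (-2.00 and -0.90), Smad7 (-1.93 and -0.80), Smad3 (-1.89 and -0.85), Smad2 (-1.31 and -0.29) and Bambi (-1.29 and -0.76) were lower in MLN under both scalings. Smad4 (-0.63 as deposited, 0.50 after), Ski (-0.65 and 0.38), Smurf2 (-0.66 and 0.44) and Smurf1 (-0.49 and 0.47) changed sign. After quantile normalization 6 of 10 were thus called lower and 4 higher, beside 29.7% and 34.4% of all probe sets. Each value given here passed the threshold, with adjusted p from 7.16e-08 for Tgif1 as deposited to 0.00526 for Ski after quantile normalization. The within-array percentiles rest on the same ranks as quantile normalization, so that they divided the genes the same way is no separate check. Bambi stood lower in MLN Cre- by -11.9 percentile points, Smad3 by -10.3, Skil by -8.9, Tgif1 by -8, Smad7 by -6.1 and Smad2 by -3.8. Smurf1 stood higher by 6.6, Ski by 4.9, Smurf2 by 4.8 and Smad4 by 2.5.

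**Figure D3:**
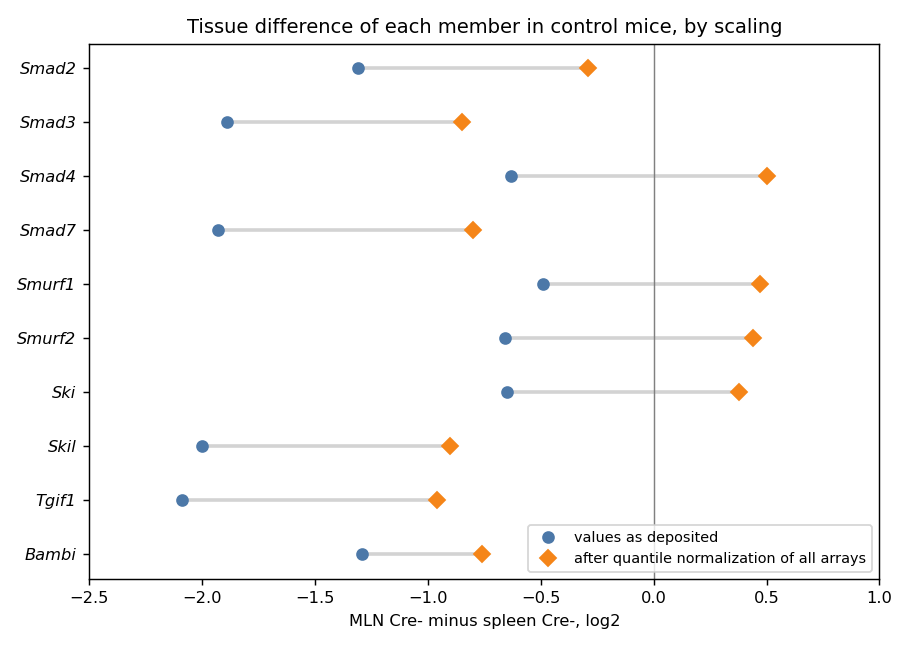
MLN Cre- minus spleen Cre- difference (x axis, log2) of each gene (y axis) on the deposited values (circles) and after quantile normalization of all 12 arrays (diamonds). Tgif1, Skil, Smad7, Smad3, Smad2 and Bambi stay left of 0 under both scalings, and Smad4, Smurf1, Smurf2 and Ski cross it.

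In Cre+ mice the same division was seen. As deposited, 9 of 10 genes were lower in MLN Cre+ than in spleen Cre+, and Smurf1, at -0.23 (SE 0.11, adjusted p = 0.0843), did not pass. The same 9 had no overlap, beside 45.2% of all probe sets called lower and 45.8% lower without overlap. After quantile normalization Skil had -1.04, Tgif1 -0.97, Smad7 -0.86, Bambi -0.74, Smad3 -0.50 and Smad2 -0.29, and Smurf1 had 0.57, Smad4 0.41, Ski 0.36 and Smurf2 0.21, all past the threshold (27.4% of all probe sets lower and 30.6% higher). Both tissue comparisons also span a change of isolated population, CD11c+ against CD11c+CD103+, and of isolation method. Neither can be told apart from tissue. Signal of other cells changed too: the macrophage list had a mean percentile of 92.6 to 94.5 in spleen Cre- and 52.7 to 57.9 in MLN Cre-, and the T cell list 80.8 to 83.7 and 93.7 to 95.3. On the deposited scale, Y-linked Eif2s3y was lower in MLN than in spleen in Cre- mice (-2.48, adjusted p = 0.000257) and higher in Cre+ mice (4.43, adjusted p = 3.68e-06). Its means were 7.42 ± 1.00 and 7.60 ± 0.59 in the MLN pools (SD, n = 3), and the MLN Cre- arrays spanned 6.27 to 8.06. Y-linked Kdm5d stood at 4.31 in spleen Cre+ and 6.52 in MLN Cre+. The make-up by sex thus differed between the tissues in Cre+ mice, and it may have differed in Cre- mice. The part of these cells and of sex in the tissue differences was not tested.

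The stretch before the gene start is shown for 4 members with 1 annotated start, as examples of genes that stayed lower in MLN (Smad3) and that changed sign with the scaling (Smurf1, Smurf2 and Ski). The sequences are from RefSeq on GRCm38.p6, all on the minus strand, written 5′ to 3′. The motif searched was CAGAC, the short Smad-binding box, on both strands (GTCTG on the other), within 250 bases before the start, and matches are in capitals. The stretches are chr9:63757995-63758244 for Smad3, chr4:155222536-155222785 for Ski, chr5:144965900-144966080 for Smurf1 and chr11:106920748-106920965 for Smurf2, the latter pair cut at the gene's annotated span. For Smurf1 and Smurf2 the start used lies inside that span, so the last printed base is 70 and 33 bases before it. Positions of matches count from the start used, not from the end of the printed stretch.
Smad3: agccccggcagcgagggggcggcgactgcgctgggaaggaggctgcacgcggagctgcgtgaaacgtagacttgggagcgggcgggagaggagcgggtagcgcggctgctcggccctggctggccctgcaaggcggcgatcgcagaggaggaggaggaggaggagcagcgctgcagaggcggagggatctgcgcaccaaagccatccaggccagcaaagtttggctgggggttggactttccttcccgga
Ski: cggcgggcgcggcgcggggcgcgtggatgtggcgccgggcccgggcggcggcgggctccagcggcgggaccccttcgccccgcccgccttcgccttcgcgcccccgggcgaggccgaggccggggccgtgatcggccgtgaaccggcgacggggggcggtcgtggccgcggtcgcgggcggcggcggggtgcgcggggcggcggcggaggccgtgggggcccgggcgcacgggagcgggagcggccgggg
Smurf1: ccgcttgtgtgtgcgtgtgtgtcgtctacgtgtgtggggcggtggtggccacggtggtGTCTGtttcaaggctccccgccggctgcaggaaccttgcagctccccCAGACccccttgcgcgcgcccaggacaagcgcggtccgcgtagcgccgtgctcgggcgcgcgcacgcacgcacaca
Smurf2: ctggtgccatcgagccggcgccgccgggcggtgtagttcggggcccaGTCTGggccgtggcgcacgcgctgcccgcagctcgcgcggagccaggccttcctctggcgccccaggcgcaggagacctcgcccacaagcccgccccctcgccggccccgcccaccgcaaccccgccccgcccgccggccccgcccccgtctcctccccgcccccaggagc
Smurf1 held 2 matches, with first bases 192 and 145 before the start, Smurf2 held 1, at 203, and Smad3 and Ski held none in these windows. Of all 32851 windows of that length in the table, 42.2% held at least 1 match and 11.7% held 2 or more. Of the 10 members, 5 were matched in the table, and Tgif1, with 5 annotated starts, is not printed.

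Genotype calls in the rest of the pathway are set beside 2.17% of all probe sets called in spleen and 0.0857% in MLN. None of the 4 other Smads was called in spleen or MLN: the BMP-branch Smads Smad1, Smad5 and Smad9 had 0.05, -0.07 and -0.17 in spleen and 0.18, 0.10 and -0.06 in MLN, and the inhibitory Smad6 had -0.03 and -0.06. Of 26 measured Smad partners and modifiers 0 were called in either tissue, with medians of 0.08 in spleen and 0.20 in MLN, against 0.01 and 0.08 over all probe sets. After quantile normalization these medians were 0.03 and 0.05, against 0.01 and -0.01 over all. Those with the smallest p were the deubiquitinase gene Otub1 (0.28, adjusted p = 0.21), the corepressor gene Tgif2 (0.33, adjusted p = 0.279) and the phosphatase gene Ctdsp1 (0.25, adjusted p = 0.303) in spleen. In MLN they were Foxh1, a DNA-binding partner of Smad2 (0.58, adjusted p = 0.352), the deubiquitinase gene Usp15 (0.20, adjusted p = 0.388) and Ppm1a, a phosphatase for Smad2 and Smad3 (0.21, adjusted p = 0.397). Foxh1 stood low, at means of 5.79 in MLN Cre- and 6.37 in MLN Cre+, under the medians of the MLN arrays (6.74 to 6.89). Tgif2, a paralogue of Tgif1, had 0.34 in MLN (adjusted p = 0.401), close to its spleen value.

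Of 11 receptor genes of the TGF-beta superfamily 0 were called in either tissue on the deposited scale. Tgfbr1 had -0.44 (adjusted p = 0.0762) in spleen and was called there after quantile normalization (-0.45, adjusted p = 0.0499), Acvr2a had -0.30 (adjusted p = 0.0869) and Tgfbr2 -0.24 (adjusted p = 0.138). The MLN values with the smallest p were Acvr2a at 0.16 (adjusted p = 0.445), Tgfbr1 at -0.18 (adjusted p = 0.52) and Tgfbr2 at -0.12 (adjusted p = 0.524). Among 20 measured genes known as TGF-beta targets, Axl, a receptor tyrosine kinase for dying cells, fell by 0.78 in spleen (adjusted p = 0.0275), and Tgfbi, an extracellular matrix protein gene, rose by 1.20 in MLN (adjusted p = 0.0321). The other 19 did not pass in each tissue. Of all probe sets, 2.17% were called in spleen and 0.0857% in MLN. The MLN value of Tgfbi ran from 1.07 to 1.40 over 19 alternatives, but the call was lost in 9 of them (adjusted p up to 0.163): with the replicate block, with the MLN arrays alone, without replicate 2 of either spleen group, without MLN Cre- replicate 1 or 2, and without any one of the MLN Cre+ replicates. The spleen value of Axl ran from -0.88 to -0.64, and its call was lost in 6 of 19 (adjusted p up to 0.104): with the splenic arrays alone, without spleen Cre- replicate 1 or 2, and without any one of the spleen Cre+ replicates. Axl is known in macrophages as well as DC, and the median difference of the macrophage list was -0.38 in spleen and 0.52 in MLN, whose part in the Axl value was not tested. The Axl difference itself differed between the tissues (1.31, SE 0.21, adjusted p = 0.0452), a call lost with the replicate block and in 11 of the 12 fits without a single array (1.18 to 1.41, adjusted p up to 0.131), whereas that of Tgfbi did not pass (1.09, adjusted p = 0.112).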

How the data were processed

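Gene expression was measured on 12 arrays, 3 in each of 4 groups, and groups were taken from sample titles. For MLN Cre+ samples, 1 field of the labels names Cre- mice, whereas title, source and genotype all say Cre+, which was followed. The deposited values are log2 expression values at the gene level, made by the authors with RMA in GeneSpring per the labels. That the scale is log2 follows from the range of the values. Whether both tissues were normalized together is not given in the sources used here, and no detection call was used. Of 23332 probe sets, 14996 had 1 symbol in the platform annotation, 1019 had several and 7317 had none.

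The values were fitted as deposited in limma 3.58.1 (R 4.3.3) with 4 group means over all 12 arrays, which gave 8 residual and 2.66 prior degrees of freedom. Two-sided p-values from limma were adjusted by Benjamini-Hochberg over all 23332 probe sets, and the call threshold was 0.05 on that adjusted value. With 3 arrays against 3, an exact permutation test cannot give a two-sided p under 0.1, so none is given. The steps were tested on simulated data. Alternatives were quantile normalization, shifting all arrays to 1 median, dropping dim probe sets, keeping only those with 1 symbol, a robust variance with trend, a replicate block, each tissue alone, and each array left out in turn. All 10 genes are named. Of the other pathway lists, the genes named for the genotype comparison in each tissue are those called, or else the 3 with the smallest p. All other Smads, Tgif2 in MLN, Tgfbi between tissues and marker genes were added after their values were seen. Of the cell type and proliferation lists, most called genes are given as counts and not by name. The genes and lists were chosen with earlier results of these data known.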

Additional observations from a re-analysis of the deposited data

How the results depend on the processing

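No Smad gene was called in a genotype comparison under any alternative, including each of the 12 arrays left out, and in the control tissue comparison 10 stayed called except with every array shifted to 1 median (9). In Cre+ mice 9 to 10 were called. Of 740 recomputed genotype values of single genes 47 changed sign, none of them called, and of 380 tissue values 16 did. The tissue values include differences in percentile points, which rest on the same ranks as quantile normalization and turned with it. The number of arrays limits the precision, and RMA values carry no measure of signal over background.

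After quantile normalization, spleen differences turned to -0.03 for Smad2 and -0.04 for Tgif1, and MLN differences to -0.02 for Smad2, -0.06 for Smad4, -0.04 for Smurf1, -0.12 for Smurf2 and -0.06 for Tgif1. The means over tissues turned to -0.02 for Smad2, -0.01 for Smad3, -0.02 for Smad4, -0.0045 for Smurf2 and -0.05 for Tgif1, and the differences between tissues to -0.02 for Ski, -0.06 for Smad7 and -0.01 for Tgif1. With 1 median for all arrays, MLN differences turned to -0.0024 for Smad4 and -0.03 for Smurf2, those between tissues to -0.0048 for Bambi and -0.02 for Smad7, and Smurf1 lost its call between the control tissues (-0.19, adjusted p = 0.0818). The tissue values that turned after quantile normalization were 0.38 and 0.36 for Ski, 0.50 and 0.41 for Smad4, 0.47 and 0.57 for Smurf1 and 0.44 and 0.21 for Smurf2, in Cre- and Cre+ mice. As percentile points they were 4.9 and 4.9 for Ski, 2.5 and 2.1 for Smad4, 6.6 and 8.3 for Smurf1 and 4.8 and 2.2 for Smurf2. The different value spread of the tissues, which quantile normalization removes by construction, goes with these turns; other causes were not tested.

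With single arrays left out, signs turned within -0.14 to 0.05 for Ski, -0.03 to 0.09 for Smurf2 and -0.01 to 0.20 for Tgif1 in MLN, within -0.03 to 0.04 for Tgif1 in spleen, within -0.05 to 0.03 for Smurf1 and -0.000033 to 0.10 for Tgif1 in the mean, and within -0.09 to 0.10 for Skil, -0.04 to 0.03 for Smad4, -0.03 to 0.14 for Smad7 and -0.01 to 0.19 for Tgif1 between tissues. Smurf1 between Cre+ tissues ran from -0.33 to -0.16 and was called only without MLN Cre+ replicate 3 among the omissions (-0.33, adjusted p = 0.0198).

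Counts over all probe sets moved more. The spleen count of 507 was 286 after quantile normalization and 18 with the 6 splenic arrays alone, and ran from 141 to 519 with single arrays left out, with shifts of over 1.5 times without spleen Cre- replicate 1 (196) or 2 (211), spleen Cre+ replicate 1 (265) or 2 (141), MLN Cre- replicate 2 (300) and MLN Cre+ replicate 2 (305). The MLN count of 20 was 53 after quantile normalization, 39 with the filter on dim probe sets, 32 with 1-symbol probe sets and 0 with the MLN arrays alone, and ran from 0 to 42 with single arrays left out. The replicate block gave 281 in spleen and 0 in MLN, left 0 Smad genes called by genotype, and brought Smurf1 past the threshold between Cre+ tissues (-0.23, adjusted p = 0.0312), with no other call of a Smad gene changed. The replicate numbers were not taken as pairing: deviations of same-numbered arrays correlated across probe sets at -0.08, -0.0026 and -0.14 in spleen and 0.20, 0.0015 and 0.31 in MLN, and not every array correlated best with its own number. The causes of these shifts were not tested.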

Other observations

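Across the 12 arrays, after subtraction of each tissue's mean, the 1-symbol probe sets most like Smad3 were Sidt2 (Pearson r 0.952), Mief1 (0.929) and Wfdc12 (0.925), those most like Smad7 were Ppid (0.925), Dmrt2 (0.902) and Tdrp (0.888), and those most like Skil were Col24a1 (0.890), Cyct (0.869) and Rp1 (0.859). Each is the top of 14995 compared, and the centred values still hold genotype differences and any batch within a tissue. The SD of these centred values was at most 0.36, so the likenesses are given as a description alone.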
